A study of Mus musculus with 9 samples.

Results

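The 34 genes described here encode the core machinery of apoptosis and necroptosis in mouse striatal cells. They were taken by symbol from a count table of 36410 listed genes. The rule uses no measured value, but the list was drawn up with earlier results of these data known. By their textbook roles, 21 promote cell death, 8 oppose it, 3 are inflammatory caspases and 2, Tradd and Ripk1, act at a branch point between survival and death. The mRNA of 3 immortalized striatal lines of strain C57/BL6, which were made from mouse embryos, was sequenced, with 3 libraries per line. All lines carry a knocked-in exon 1 of huntingtin. In control cells (STHdhQ7/Q7) the protein has 7 glutamines from both alleles, in HD-het cells (STHdhQ7/Q111) it has 7 from the first and 111 from the second, and in HD-homo cells (STHdhQ111/Q111) it has 111 from both. Each genotype is a single line, so a difference of genotype and a difference of line cannot be told apart. No source states that the 3 libraries of a line came from separate cultures, so the p values measure the spread between these libraries, which may be technical.

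Apoptosis can start inside the cell, where BH3-only proteins neutralize the guardian proteins of the BCL2 family and let BAX and BAK1 open the outer membrane of mitochondria. Cytochrome c then escapes and assembles the apoptosome with APAF1 and caspase-9, while inhibitor of apoptosis proteins (IAPs) hold the caspases back. It can also start at death receptors, which recruit FADD and caspase-8. Where caspase-8 is inactive, the kinases RIPK1 and RIPK3 can instead activate the pseudokinase MLKL, which ruptures the plasma membrane in the lytic death called necroptosis. Loss of medium spiny neurons of the striatum is the hallmark of Huntington disease (HD).

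Between 29507665 and 41197931 reads were counted on genes per library. Levels are given as CPM, counts per megaread on totals normalized by the trimmed mean of M values (TMM), and 3 counts, the smallest number read here as detection, corresponded to 0.0710 to 0.101 CPM. Such a floor covers counting error only. In each line 1 library stood farther from the other two than they stood from each other, namely control 3, HD-het 3 and HD-homo 2. Huntingtin mRNA itself (Htt) was at 93.0 to 104 CPM in control, 61.1 to 64.0 CPM in HD-het and 19.2 to 21.7 CPM in HD-homo libraries. Of 14 markers of the striatal medium spiny neuron 6 passed the filter on low counts, Drd1 and Pdyn had no read in any library, and Drd2 and Gad1 had 3 or fewer. The 14 markers summed to 90.3 to 101 CPM in control, 115 to 118 CPM in HD-het and 162 to 184 CPM in HD-homo libraries. Foxp1, Penk and Adora2a had the highest mean levels among them. Summed over 7 genes, neural progenitor markers were at 666 to 708 CPM in control, 966 to 1005 CPM in HD-het and 32.5 to 45.4 CPM in HD-homo libraries. Fibroblast and mural cell markers, 10 genes, were at 4880 to 6180, 14707 to 16586 and 6592 to 7170 CPM in the same order. The part of these marker levels in the results below was not tested, and in bulk RNA fewer cells of a type and less RNA per cell cannot be told apart.

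The 2 genes that carry out necroptosis, Ripk3 and Mlkl, rose further than any other tested gene of the set in HD-homo cells, where both went from few reads to levels per kilobase between those of Casp8 and Bax. Ripk3, the kinase that commits a cell to necroptosis, had 3, 9 and 4 counts in the control libraries, 34, 30 and 40 in HD-het and 1767, 2442 and 1677 in HD-homo libraries. Normalized, these were 0.0933, 0.268 and 0.135 CPM in control, 0.959, 0.915 and 1.20 CPM in HD-het and 54.2, 57.8 and 50.02 CPM in HD-homo cells. The 3 lines did not overlap, the control libraries lay close to the detection floor, and all HD-homo libraries were far above the rest. HD-homo cells had 327 times the Ripk3 mRNA of control cells. The log2 fold change was 8.30 ± 0.182 (SE, n = 3 per line), with an adjusted p of 2.28e-11. Unless a library is named as left out, adjusted p are from the quasi-likelihood test of edgeR on all 9 libraries, adjusted by the Benjamini-Hochberg method over 13508 tested genes. Where a library was left out, the same test was adjusted over the genes tested in that fit. Ripk3 ranked 59 by log2 increase among the tested genes, and Mlkl ranked 145. HD-het cells had 6.19-fold more Ripk3 than control cells (log2 2.58 ± 0.295, adjusted p = 1.70e-05). The step from HD-het to HD-homo cells was 52.8-fold (log2 5.72 ± 0.139, adjusted p = 5.01e-11). With so few control reads, the fold against control depends on the rare counts in those 3 libraries and ran from log2 8.01 to 8.85 over the alternative settings.

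Mlkl, the pseudokinase that RIPK3 phosphorylates to breach the membrane, had 0.715, 0.535 and 0.541 CPM in control, 8.15, 9.15 and 12.5 CPM in HD-het and 39.7, 40.5 and 47.3 CPM in HD-homo libraries. Every HD-het library was above every control library and below every HD-homo library. It rose 16.6-fold in HD-het cells (log2 4.04 ± 0.216, adjusted p = 5.63e-08) and 71.2-fold in HD-homo cells (log2 6.14 ± 0.203, adjusted p = 6.76e-10), and the step between the HD lines was 4.29-fold (log2 2.10 ± 0.141, adjusted p = 1.52e-07). Mlkl thus showed its larger log2 step between control and HD-het cells, and Ripk3 between HD-het and HD-homo cells. Compared per kilobase of exon, the ratio of Mlkl to Ripk3 mRNA was 9.59 ± 0.997 (SD, n = 3) in HD-het and 0.790 ± 0.133 in HD-homo libraries, without overlap, while in control libraries it rested on a handful of Ripk3 reads.

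RIPK1, the kinase upstream of RIPK3 that also scaffolds survival signalling at the TNF receptor, followed another order. Its mRNA was at 77.1, 75.6 and 71.7 CPM in control, 56.8, 58.2 and 55.7 CPM in HD-het and 82.1, 82.1 and 84.9 CPM in HD-homo libraries. HD-het cells were lowest and HD-homo cells highest, and no libraries of different lines overlapped. Ripk1 fell in HD-het cells (log2 -0.40 ± 0.0527, adjusted p = 5.53e-05). Against control its increase in HD-homo cells was 1.11-fold (log2 0.15 ± 0.0523, adjusted p = 0.0290), a call that was lost without control 2, control 3 or HD-homo 3, with adjusted p of 0.0676, 0.109 and 0.0755. The per kilobase ratio of Ripk3 to Ripk1 mRNA was 0.00440, 0.0129 and 0.00687 in control, 0.0614, 0.0572 and 0.0783 in HD-het, and 2.40, 2.56 and 2.14 in HD-homo libraries. On this scale Ripk3 was far below Ripk1 in control and HD-het cells and above it in HD-homo cells. In CPM, without division by length, Ripk3 stayed below Ripk1 in HD-homo cells, at 54.0 against 83.0. The lengths used were unions of annotated exons, 2292 bases for Ripk3 and 8344 for Ripk1, which need not be those of the expressed transcripts. Of the Ripk1 bases 9.01% lie in other annotated genes too.

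Ranked by CPM per kilobase of exon among the 34 genes, Ripk3 moved from place 31 in control cells to 30 in HD-het and 6 in HD-homo cells, and Mlkl from 28 to 21 and 7. On this scale Ripk3 reached 23.6 ± 1.70 CPM per kb (SD, n = 3) in HD-homo cells, beside 13.1 ± 0.489 for Casp8 and 93.5 ± 7.66 for Mcl1, which ranked first in all lines. Neither Ripk3 nor Mlkl shares an exonic base or a 50-base word with another annotated gene, in GENCODE release M21 of the GRCm38 build, where Ripk3 lies at chr14:55784995-55788865 and Mlkl at chr8:111311797-111338177, both on the minus strand. Microglia and leukocytes express both. The 8 markers of these cells summed to 3.03 to 3.18 CPM in control, 3.83 to 6.50 CPM in HD-het and 4.40 to 4.92 CPM in HD-homo libraries, and Aif1 and Tyrobp had no read in any library.

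**Figure D1:**
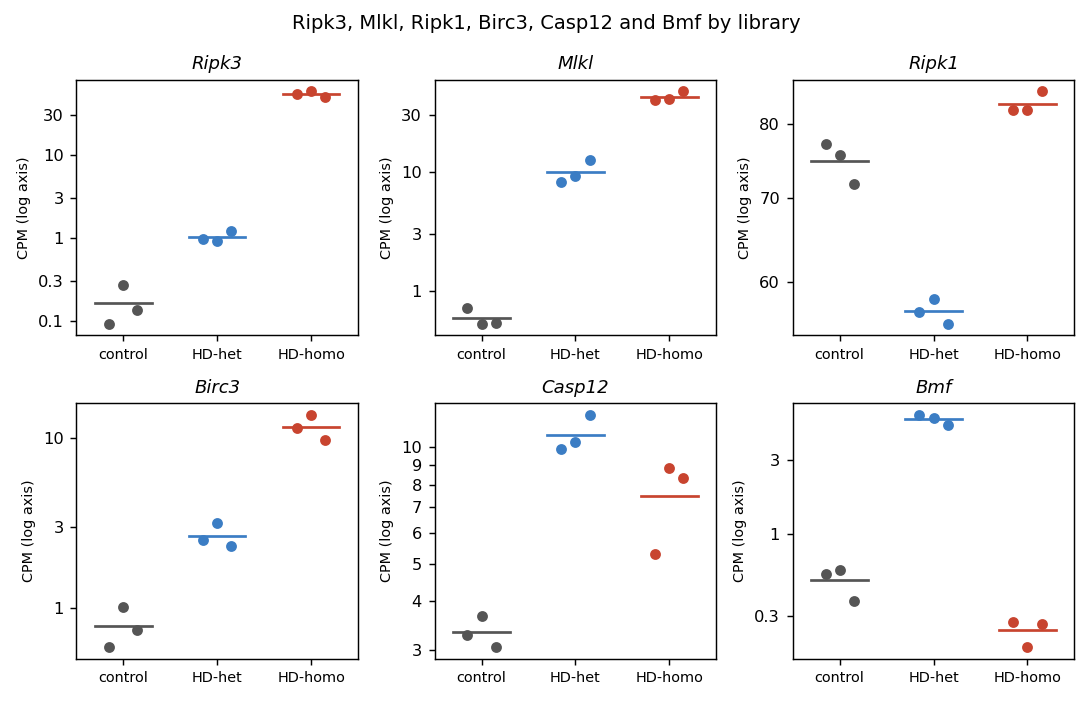
CPM per library (log axis) of Ripk3, Mlkl, Ripk1, Birc3, Casp12 and Bmf in the 3 lines. Points are the 3 libraries of a line and bars their means; Ripk3, Mlkl and Birc3 are highest in all HD-homo libraries, Bmf and Casp12 in all HD-het libraries, and Ripk1 is lowest in HD-het cells.

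The sequences upstream of Ripk3, Mlkl and Birc3 are shown because these tested members had the largest log2 increases in HD-homo against control cells. They begin 250 bases before the RefSeq start (GRCm38.p6), end at that start or before the annotated first exon, and read along the gene's minus strand. Capitals mark CpG dinucleotides, of which there were 8 for Ripk3 (chr14:55788866-55789107), 5 for Mlkl (chr8:111338206-111338455) and 6 for Birc3 (chr9:7873187-7873420).
Ripk3: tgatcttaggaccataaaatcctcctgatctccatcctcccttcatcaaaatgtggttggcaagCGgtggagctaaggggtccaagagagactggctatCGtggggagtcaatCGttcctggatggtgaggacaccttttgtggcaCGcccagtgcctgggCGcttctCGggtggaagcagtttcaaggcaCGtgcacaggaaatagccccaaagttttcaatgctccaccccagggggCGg
Mlkl: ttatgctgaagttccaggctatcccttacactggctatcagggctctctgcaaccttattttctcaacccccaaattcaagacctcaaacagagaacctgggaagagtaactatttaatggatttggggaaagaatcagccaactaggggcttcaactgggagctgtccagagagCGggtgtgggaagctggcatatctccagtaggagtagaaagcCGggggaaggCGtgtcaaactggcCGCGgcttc
Birc3: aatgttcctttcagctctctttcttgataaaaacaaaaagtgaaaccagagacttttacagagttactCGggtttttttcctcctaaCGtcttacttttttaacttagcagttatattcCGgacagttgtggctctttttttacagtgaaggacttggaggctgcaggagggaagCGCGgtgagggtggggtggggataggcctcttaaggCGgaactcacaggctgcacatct
Over the 44 promoters listed for 31 members the median was 13.5 CpG in 250 bases, against 6 over 32851 mouse promoters. The core of the interferon-stimulated response element, searched on both strands as GAAA, any 2 bases and GAAA, occurred in 2 of the 44 member promoters of 300 bases, those of Cflar and Ripk1, and in 3.44% of all promoters. The STAT motif TTCNNNGAA occurred in 2 of the 44, in Casp12 and Ripk1, and in 8.30% of all. Both patterns contain the letters GAA, so their matches can overlap, and a match is a description of the sequence only. Tradd, Bik and Pmaip1 had no entry among these promoters.

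In the BCL2 family, members on both sides of the balance fell in HD-homo cells, among them Bcl2 and Bcl2l1 of the guardians and Bax, Bok and Bcl2l11 of the promoters of death. Of 14 tested family members, 9 fell, 1 rose and 4 did not pass the test in HD-homo against control cells, and all 3 pore-forming effectors were among those that fell. Of all tested genes 28.9% fell and 29.6% rose in that comparison. In HD-het against control cells 5 of the 14 rose, 4 fell and 5 did not pass, where 33.8% of all genes rose and 31.4% fell. Bik, among the decreases in both comparisons, passed the filter on low counts only through the control libraries, where it was highest. Between the HD lines 10 of the 14 were lower and 2 higher in HD-homo cells, against 35.6% and 36.0% of all genes. Several members moved in opposite directions in the 2 HD lines, among them Bok, Bmf and Bbc3.

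Bcl2, the founding guardian that keeps mitochondria closed, showed the strongest decrease of the guardians. It was at 33.3, 34.02 and 32.3 CPM in control, 15.5, 15.2 and 18.6 CPM in HD-het and 7.14, 5.73 and 6.29 CPM in HD-homo libraries. The 3 lines formed separate steps downward with no overlap. The decrease was 2.02-fold in HD-het cells (log2 -1.01 ± 0.0968, adjusted p = 4.39e-06) and 5.19-fold in HD-homo cells (log2 -2.38 ± 0.104, adjusted p = 6.68e-09), and the HD lines differed 2.58-fold (log2 -1.37 ± 0.105, adjusted p = 4.46e-07). Bcl2l1, which encodes BCL-XL, stood at 96.2, 92.3 and 105 CPM in control, 88.4, 82.9 and 93.2 CPM in HD-het and 64.3, 82.9 and 61.5 CPM in HD-homo libraries. Its HD-homo libraries were all below control, by 1.41-fold (log2 -0.49, adjusted p = 0.00194), while HD-het libraries overlapped with both. Bcl2l2, which encodes BCL-W, rose in HD-het cells (log2 0.45, adjusted p = 9.23e-05) and had a log2 difference of 0.01 ± 0.0651 from control in HD-homo cells, and reads over 13.3% of its exonic bases could also belong to Gm20521. Mcl1, a short-lived guardian, was the most abundant of the 4 per kilobase and did not pass the test in any comparison, at 316, 304 and 304 CPM in control, 303, 305 and 282 CPM in HD-het and 312, 349 and 298 CPM in HD-homo libraries.

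Among the effectors, Bax was at 71.9, 71.5 and 91.7 CPM in control, 71.9, 65.1 and 66.0 CPM in HD-het and 53.9, 57.8 and 59.6 CPM in HD-homo libraries. All HD-homo libraries were the lowest, and control 3 was well above the other control libraries. The decrease in HD-homo cells was 1.37-fold (log2 -0.45 ± 0.0943, adjusted p = 0.00162), with log2 -0.21 and an adjusted p of 0.0690 in HD-het cells. The latter passed without control 1 or control 2, with adjusted p of 0.0458 and 0.0405. Reads over 12.2% of the exonic bases of Bax could also belong to Gm45808 on the same strand. Bak1, the partner of Bax in pore formation, changed less, with log2 -0.17 and an adjusted p of 0.0465 in HD-homo cells, and the call was lost without any control library, without HD-het 1, HD-homo 2 or HD-homo 3, with adjusted p of 0.0635 to 0.124. With all 9 libraries it was also lost with library totals only (0.0552), no filter on low counts (0.0623) or at least 10 counts in every library (0.0556). The Wald test of DESeq2 gave an adjusted p of 0.0508. The exons of Bak1 share 25.5% of their bases with Ggnbp1 on the opposite strand.

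Bok, a relative of Bax that sits largely at the endoplasmic reticulum, moved oppositely in the HD lines. It was at 83.9, 79.1 and 86.2 CPM in control, 125, 114 and 127 CPM in HD-het and 45.4, 37.6 and 49.6 CPM in HD-homo libraries. The HD-het libraries were all above control and the HD-homo libraries all below. Bok rose 1.47-fold in HD-het cells (log2 0.55 ± 0.0911, adjusted p = 2.60e-04) and fell 1.88-fold in HD-homo cells (log2 -0.91 ± 0.0929, adjusted p = 7.55e-06). The test between the HD lines gave a log2 difference of -1.47 ± 0.0934 (adjusted p = 9.84e-08).

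Of the 8 BH3-only genes, which encode the stress sensors upstream of the effectors, 7 were tested. Bmf, a sensor of cytoskeletal stress and detachment, gave the widest contrast between the HD lines in the BCL2 family. It had 18, 20 and 11 counts in control, 205, 181 and 167 in HD-het and 9, 8 and 9 in HD-homo libraries, or 0.560, 0.595 and 0.372 CPM, 5.78, 5.52 and 5.00 CPM and 0.276, 0.189 and 0.268 CPM. HD-het libraries stood far above both other lines, and HD-homo libraries were below control at few reads. Bmf rose 10.7-fold in HD-het cells (log2 3.40 ± 0.191, adjusted p = 8.72e-08), fell in HD-homo cells (log2 -1.08 ± 0.283, adjusted p = 0.00682) and differed 22.2-fold between the HD lines (adjusted p = 9.50e-09).

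Pmaip1 and Bbc3, which encode NOXA and PUMA, are known targets of p53. Pmaip1 was at 29.2, 30.7 and 25.6 CPM in control, 88.9, 99.0 and 97.2 CPM in HD-het and 28.0, 40.4 and 44.4 CPM in HD-homo libraries. The HD-het libraries were far above the others, and HD-homo 1 lay within the range of control cells. The increase in HD-het cells was 3.33-fold (log2 1.73 ± 0.143, adjusted p = 1.38e-06), while that in HD-homo cells, log2 0.40 ± 0.142 with an adjusted p of 0.0317, was lost without control 1, control 3, HD-homo 2 or HD-homo 3, with adjusted p of 0.0640 to 0.119. Bbc3 was at 5.54, 7.43 and 7.20 CPM in control, 10.1, 8.08 and 8.24 CPM in HD-het and 2.82, 2.94 and 2.74 CPM in HD-homo libraries. It fell 2.37-fold in HD-homo cells (log2 -1.24 ± 0.146, adjusted p = 2.38e-05), with 3 libraries close together below all others. Its rise in HD-het cells was small (log2 0.39 ± 0.135, adjusted p = 0.0252) and was lost without control 1 or HD-het 1, with adjusted p of 0.115 and 0.121, and the 2 HD lines differed 3.10-fold (adjusted p = 1.44e-06). Between the HD lines Pmaip1, too, was lower in HD-homo cells (log2 -1.34, adjusted p = 5.73e-06).

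Bcl2l11, which encodes BIM, the broadest binder of the guardians, fell stepwise. It was at 51.1, 48.1 and 49.5 CPM in control, 38.4, 37.3 and 36.0 CPM in HD-het and 24.2, 30.7 and 25.9 CPM in HD-homo libraries, without overlap. The log2 fold changes were -0.41 ± 0.0838 in HD-het (adjusted p = 0.00116) and -0.88 ± 0.0847 in HD-homo cells (adjusted p = 4.81e-06), and -0.46 between them (adjusted p = 4.50e-04). Bik, a BH3-only protein of the endoplasmic reticulum, had 16, 13 and 16 counts in control, 10, 4 and 5 in HD-het and 5, 2 and 1 in HD-homo libraries. The control libraries were the highest, but all values were near the floor, and Bik passed the filter on low counts only through them. Its log2 fold changes were -1.33 ± 0.413 (adjusted p = 0.0149) and -2.62 ± 0.489 (adjusted p = 8.09e-04), and the first was lost without HD-het 2 or control 3, with adjusted p of 0.0620 and 0.0506. Bad, which couples growth factor withdrawal to the guardians, fell in HD-het cells (log2 -0.30, adjusted p = 0.00214), and its exons share 20.5% of their bases with Gpr137 on the opposite strand. Bid, which caspase-8 cleaves to link death receptors to mitochondria, did not pass against control in either line and was higher in the HD-homo line when the HD lines were compared (log2 0.34, adjusted p = 0.0425), although HD-het 3, at 53.9 CPM, lay within the HD-homo range and far above the other HD-het libraries at 35.8 and 36.2 CPM. With HD-het 3 left out, Bid fell in HD-het cells (log2 -0.48, adjusted p = 4.06e-04), while the call between the HD lines was lost without any other library except HD-homo 2, with adjusted p of 0.0560 to 0.170. The exons of Bid share 17.7% of their bases with Bcl2l13 on the opposite strand. Hrk, a BH3-only gene of neurons, had at most 5 counts in any library and was not tested.

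**Figure D2:**
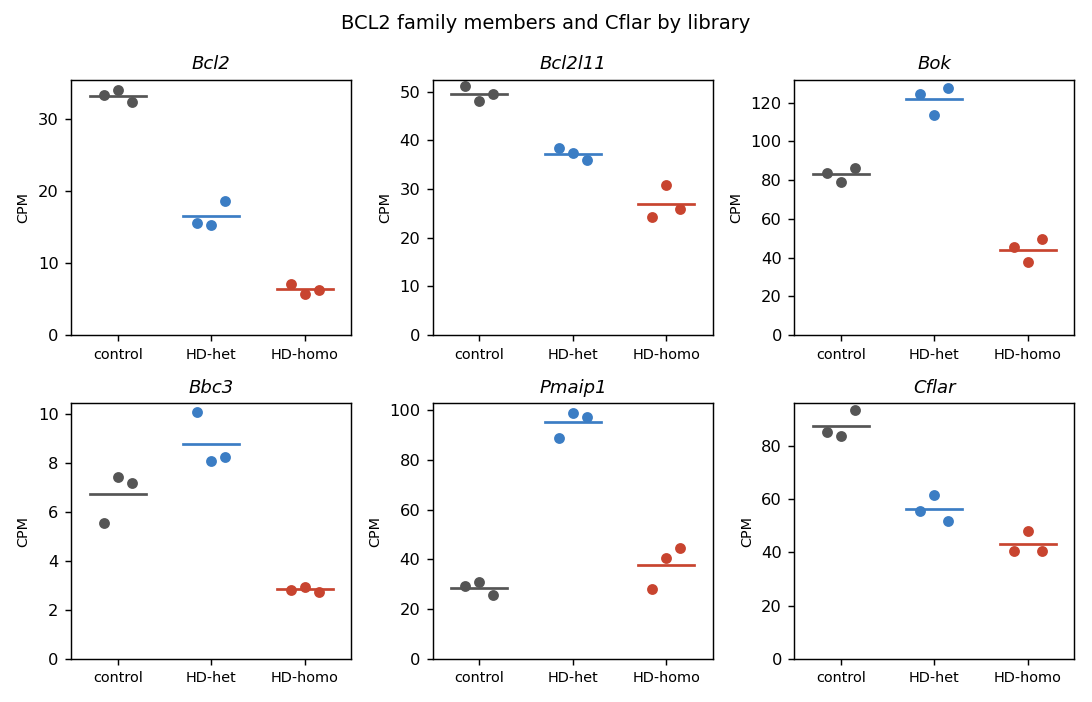
CPM per library of Bcl2, Bcl2l11, Bok, Bbc3, Pmaip1 and the caspase-8 inhibitor Cflar. Points are the 3 libraries of a line and bars their means; Bcl2, Bcl2l11 and Cflar step down from control to HD-het to HD-homo cells, while Bok, Bbc3 and Pmaip1 are highest in HD-het cells.

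The ratio of Bax to Bcl2 mRNA is a widely used readout of the mitochondrial balance. Per kilobase of exon it was 12.6, 12.2 and 16.5 in control, 26.9, 24.8 and 20.6 in HD-het, and 43.9, 58.7 and 55.0 in HD-homo libraries. The lines did not overlap, and the ratio was higher in HD-homo cells although both mRNAs were lower there. When all 3 effectors were summed over all 4 guardians, the order changed. That ratio was 1.02, 1.05 and 1.16 in control, 1.26, 1.15 and 1.33 in HD-het, and 0.831, 0.701 and 0.895 in HD-homo libraries. Here HD-homo cells were lowest, and control 3 overlapped with the HD-het range. On average Bok was at 45.1 CPM per kb in control, 66.3 in HD-het and 24.0 in HD-homo cells. Bax was at 49.7, 42.9 and 36.2 and Bak1 at 40.9, 43.7 and 36.4 in the same order. Of the effectors only Bok passed the test in HD-het against control cells. The summed guardians were at 126 ± 2.38 (SD, n = 3), 123 ± 3.69 and 120.3 ± 9.99 CPM per kb, in the order of the lines used above, of which Mcl1 made up the largest share. Summed BH3-only genes were at 47.7 ± 0.771, 67.4 ± 3.31 and 46.5 ± 3.77 CPM per kb in the same order. Of these genes Pmaip1 alone was at 10.4 ± 0.961, 34.8 ± 1.97 and 13.8 ± 3.14 CPM per kb, so the higher HD-het sum rested on Pmaip1.

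**Figure D3:**
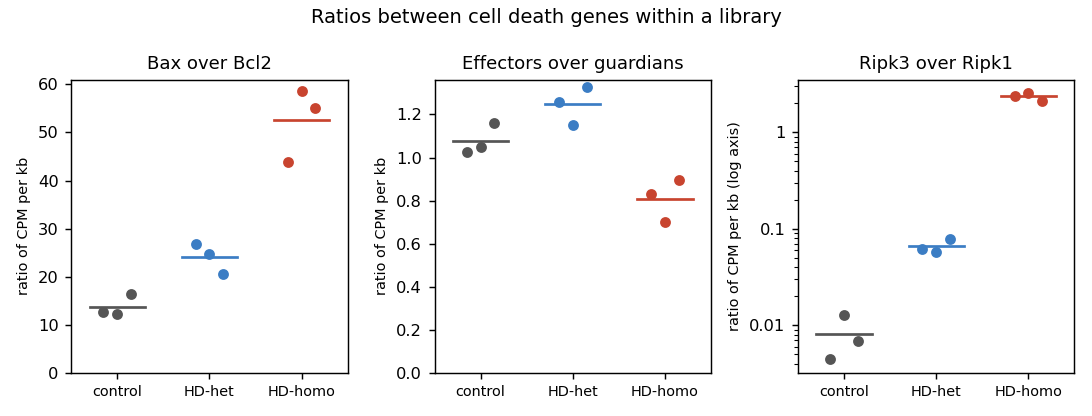
Ratios of CPM per kb within each library, for Bax over Bcl2, for the 3 effectors over the 4 guardians, and for Ripk3 over Ripk1 (log axis). Points are libraries and bars means of 3; Bax over Bcl2 is highest in HD-homo cells, the summed effectors over guardians are lowest there, and Ripk3 exceeds Ripk1 in HD-homo cells only.

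Of the 4 apoptosome genes, which act downstream of mitochondria, Casp9 and Cycs passed the test in HD-het and Diablo in HD-homo against control cells. Casp9, the initiator caspase of the apoptosome, was at 14.1, 13.1 and 11.8 CPM in control, 23.9, 25.8 and 20.2 CPM in HD-het and 15.3, 16.0 and 11.6 CPM in HD-homo libraries. The HD-het libraries were all above both other lines, which overlapped. It rose 1.79-fold in HD-het cells (log2 0.84 ± 0.131, adjusted p = 1.82e-04) and was lower in the HD-homo line when the HD lines were compared (log2 -0.70, adjusted p = 4.91e-04). Apaf1, the scaffold of the apoptosome, did not pass in any comparison, with log2 -0.23 ± 0.121 in HD-het and -0.23 ± 0.121 in HD-homo cells, although without HD-homo 2 both passed (adjusted p = 0.0400 and 0.01004). Diablo, the mitochondrial antagonist of IAPs, rose in HD-homo cells (log2 0.31, adjusted p = 0.00205), but 40.9% of its exonic bases lie in other annotated genes too, among them the gene model Gm49027 on the same strand. Cycs, cytochrome c, fell in HD-het cells (log2 -0.27, adjusted p = 0.0196), and it shares 25.9% of its 50-base words with other genes, among them Gm10053, so that the counting could split its reads. That call was lost without HD-het 1, HD-het 2 or control 3, with adjusted p of 0.0687 to 0.0823.

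The apoptotic caspases did not pass the test in HD-het against control cells. In HD-homo cells Casp6, an executioner that cleaves huntingtin and lamins, rose. Its level was 13.6, 12.2 and 12.6 CPM in control, 14.2, 14.1 and 11.8 CPM in HD-het and 21.0, 22.0 and 20.2 CPM in HD-homo libraries. All HD-homo libraries were above the others, which overlapped, and the increase over control was 1.65-fold (log2 0.72 ± 0.0898, adjusted p = 3.92e-05). Casp2, an initiator caspase linked to DNA damage and mitotic faults, fell in HD-homo cells (log2 -0.31, adjusted p = 0.00338). Casp8, the initiator at death receptors and the brake on necroptosis, was at 44.9, 43.7 and 40.7 CPM in control, 47.2, 50.1 and 44.9 CPM in HD-het and 38.7, 36.3 and 38.9 CPM in HD-homo libraries. HD-homo libraries were the lowest and HD-het libraries the highest, and log2 differences were -0.18 ± 0.0665 for HD-homo against control cells (adjusted p = 0.0337, lost without control 1, control 2 or HD-homo 2 at 0.0923 to 0.128) and -0.32 ± 0.0663 between the HD lines (adjusted p = 0.00110).

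The 3 inflammatory caspases lie next to each other on chromosome 9, at chr9:5298517-5307265 (Casp1), chr9:5308828-5336783 (Casp4) and chr9:5345430-5373032 (Casp12), all on the plus strand. Casp1 and Casp4 act in inflammasomes on cytokines or gasdermin D, and Casp12 is tied to stress of the endoplasmic reticulum. Casp12 was at 3.27, 3.66 and 3.04 CPM in control, 9.90, 10.3 and 12.1 CPM in HD-het and 5.30, 8.83 and 8.32 CPM in HD-homo libraries. Every library of either HD line was above control, and HD-het libraries were the highest. It rose 3.24-fold in HD-het (log2 1.69 ± 0.184, adjusted p = 1.17e-05) and 2.25-fold in HD-homo cells (log2 1.17 ± 0.186, adjusted p = 2.47e-04), and the lines differed by log2 -0.52 ± 0.170 (adjusted p = 0.0170, 0.0634 without HD-het 3). Casp1 and Casp4 stayed under the filter and were at the limit of detection. Casp1, the caspase of the inflammasome, had 0 counts in all control and HD-homo libraries and 6, 10 and 14 in the HD-het libraries. Casp4, which senses intracellular lipopolysaccharide, had 0, 1 and 0 counts in control, 0, 1 and 3 in HD-het and 7, 11 and 9 in HD-homo libraries. Casp1 reads thus appeared in HD-het libraries only, while Casp4 reads occurred in all lines and mostly in HD-homo libraries. Against the floor of 3 counts per library, HD-het cells had at least 3.15-fold higher Casp1, and HD-homo cells at least 2.62-fold higher Casp4, than control cells. The promoter of Casp12 holds the STAT motif at 2 places in the 300 bases searched, given here with the motif in capitals on the plus strand of GRCm38.p6, the first at chr9:5345366-5345390 and the second at chr9:5345432-5345456, within the annotated first exon.
Casp12 upstream: ggttgactTTCTGGGAAaagagcag
Casp12 first exon: tggtatgtTTCTGGGAAggaaaggc

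Among inhibitors of caspases, Birc3 rose and Cflar fell in both HD lines. Birc3, which encodes the ubiquitin ligase cIAP2 and is a known target of NF-kB, had 19, 34 and 22 counts in control, 89, 104 and 77 in HD-het and 372, 574 and 325 in HD-homo libraries, or 0.591, 1.01 and 0.744 CPM, 2.51, 3.17 and 2.31 CPM and 11.4, 13.6 and 9.69 CPM. The lines stepped upward without overlap. Against control it rose 3.40-fold in HD-het (log2 1.76 ± 0.234, adjusted p = 5.46e-05) and 14.8-fold in HD-homo cells (log2 3.88 ± 0.213, adjusted p = 4.33e-08), with 4.34-fold between the HD lines (log2 2.12 ± 0.180, adjusted p = 1.04e-06). Its neighbour and closest relative Birc2, which encodes cIAP1, did not pass in any comparison, at 18.0, 18.9 and 17.2 CPM in control, 18.4, 21.2 and 19.1 CPM in HD-het and 17.6, 19.6 and 15.5 CPM in HD-homo libraries, except between the HD lines without HD-homo 2 (adjusted p = 0.0422). Birc3 shares 7.38% of its 50-base words with Gm7019, Birc2 and other genes. Xiap, a direct inhibitor of executioner caspases, rose in HD-het cells (log2 0.31, adjusted p = 0.0121, 0.0539 without HD-het 2 and 0.0504 without control 3) and had log2 0.03 ± 0.0914 in HD-homo cells.

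Cflar encodes FLIP, which blocks caspase-8 at death receptors and with it also restrains necroptosis. It was at 85.2, 83.9 and 93.4 CPM in control, 55.5, 61.6 and 51.9 CPM in HD-het and 40.7, 48.2 and 40.5 CPM in HD-homo libraries. Each line lay below the one before without overlap. Cflar fell 1.55-fold in HD-het (log2 -0.63 ± 0.0866, adjusted p = 6.54e-05) and 2.03-fold in HD-homo cells (log2 -1.02 ± 0.0874, adjusted p = 1.77e-06), and the HD lines differed by log2 -0.38 ± 0.0874 (adjusted p = 0.00207). The adaptors moved in different lines. Fadd, which bridges death receptors to caspase-8, was at 10.9, 11.2 and 10.1 CPM in control, 17.1, 15.9 and 16.95 CPM in HD-het and 9.72, 9.14 and 9.72 CPM in HD-homo libraries. It rose in HD-het cells (log2 0.63 ± 0.0796, adjusted p = 3.43e-05), and in HD-homo against control cells it had log2 -0.17 ± 0.0813 with an adjusted p of 0.0918. Tradd, the first adaptor at the TNF receptor, was at 14.3, 13.1 and 14.6 CPM in control, 14.1, 12.7 and 11.4 CPM in HD-het and 21.5, 20.8 and 23.9 CPM in HD-homo libraries. It rose 1.58-fold in HD-homo cells (log2 0.66 ± 0.0951, adjusted p = 1.22e-04), where all libraries were above those of both other lines.

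Counted over the whole set, pro-death and pro-survival genes moved both ways in either HD line. In HD-homo against control cells 9 of 31 tested members rose (29.0%) and 12 fell (38.7%), against 29.6% and 28.9% of all 13508 tested genes. Of 20 tested pro-death genes 5 rose, 9 fell and 6 did not pass, with a median log2 fold change of -0.17. The 5 were Ripk3, Mlkl, Pmaip1, Casp6 and Diablo. Among 8 pro-survival genes, Birc3 rose, 3 fell (Bcl2, Bcl2l1 and Cflar) and 4 did not pass, with a median of -0.01. Over all tested genes the median was 0.01. The share of members that rose was close to that of all genes and the share that fell was above it, and the list as a whole was given no test.

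In HD-het against control cells 12 of 31 members rose (38.7%) and 7 fell (22.6%), against 33.8% and 31.4% of all genes. Pro-death genes gave 8 increases (Bok, Bmf, Bbc3, Pmaip1, Casp9, Fadd, Ripk3 and Mlkl), 4 decreases (Bcl2l11, Bad, Bik and Cycs) and 8 genes that did not pass, with a median of 0.08. Pro-survival genes gave 3 increases (Bcl2l2, Xiap and Birc3), 2 decreases (Bcl2 and Cflar) and 3 that did not pass, with a median of 0.03. These 2 comparisons share their control libraries. Directly between the HD lines, 10 of 31 members were higher (32.3%) and 17 lower (54.8%) in HD-homo cells, against 36.0% and 35.6% of all genes. There 11 of 20 pro-death genes were lower and 7 higher, and 5 of 8 pro-survival genes were lower and 1 higher. With a change of at least 2-fold in either direction also required, 9 members were left in HD-homo and 8 in HD-het against control cells and 8 between the HD lines, beside 19.1%, 18.4% and 24.3% of all tested genes. Members entered these counts only if they had enough reads in at least 3 libraries. Ripk3 thus passed through the HD lines, and Bik only through the control libraries, where it was highest. Casp1, Casp4 and Hrk did not pass at all.

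**Figure D4:**
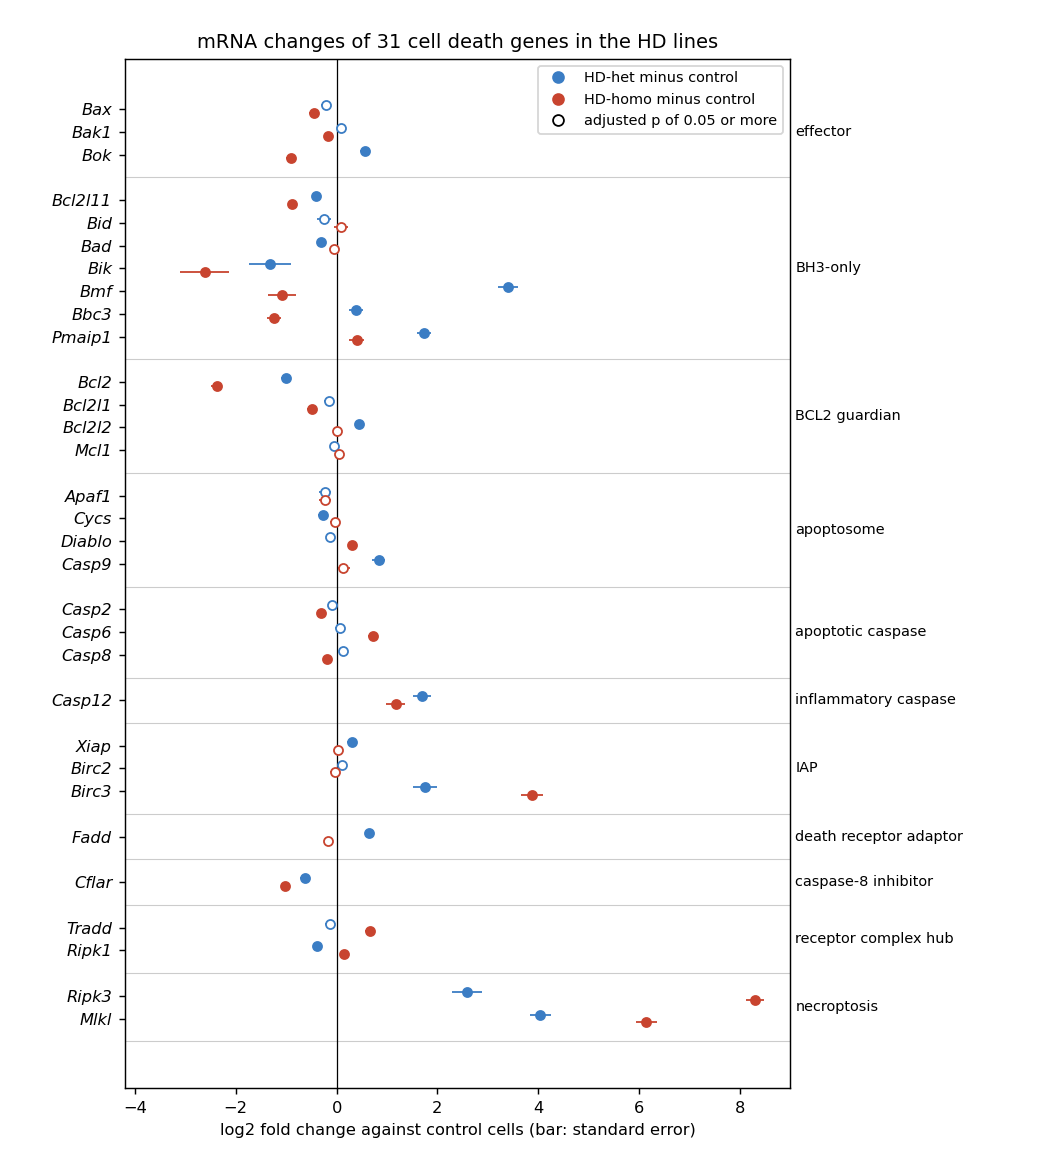
Log2 fold changes of the 31 tested genes in HD-het (blue) and HD-homo cells (red) against control, with bars for the standard error (n = 3 libraries per line), grouped by role. Filled points have an adjusted p under 0.05; the largest increases are Ripk3, Mlkl and Birc3 in HD-homo cells, Bcl2 and Bik lie farthest to the left, and Bok, Bmf and Bbc3 have filled points on opposite sides of 0.

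A list of 68 further genes of the death pathways, including receptors, ligands and caspase substrates, was examined in the same fit, and 52 passed the filter. Against control 22 rose (42.3%) and 10 fell (19.2%) in HD-homo cells, where 29.6% and 28.9% of all tested genes did. In HD-het cells 14 rose (26.9%) and 18 fell (34.6%), beside 33.8% and 31.4% of all. Of the genes that reached 5 CPM in either line and whose libraries did not overlap, Xaf1 showed the largest increase in HD-homo cells. It encodes an antagonist of XIAP and went from 0.357 ± 0.0677 to 10.9 ± 4.73 CPM (SD, n = 3; log2 4.92, adjusted p = 6.55e-07), with a wide spread between the HD-homo libraries. Tnfrsf1a, the TNF receptor that recruits TRADD and RIPK1, went from 61.5 ± 2.32 to 114 ± 6.81 CPM in HD-homo cells (log2 0.89, adjusted p = 3.14e-07) and had 64.9 ± 2.44 CPM in HD-het cells. The death receptor Fas was at 2.46 ± 0.363 CPM in control, 5.99 ± 0.647 CPM in HD-het and 5.46 ± 2.47 CPM in HD-homo cells. Fas rose in both lines, by log2 1.29 in HD-het (adjusted p = 0.00235) and 1.17 in HD-homo cells (adjusted p = 0.00516). The spread between the HD-homo libraries was wide. Bnip3, a mitophagy receptor related to the BH3-only proteins, rose by log2 0.97 in HD-homo cells (adjusted p = 8.28e-05). The largest decreases there were those of Birc6, Pidd1, Daxx and Parp1, with log2 fold changes between -0.44 and -0.58. Xaf1 and Bnip3 also rose in HD-het against control cells, by log2 1.76 and 0.46 (adjusted p = 0.00547 and 0.0104). Birc6 and Parp1 also fell in HD-het cells, with log2 -0.44 and -0.33 (adjusted p = 4.29e-05 and 0.00232), while Pidd1 and Daxx did not pass.

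In HD-het cells the leading increase of that list was Ddit3, which encodes the stress factor CHOP, from 14.8 ± 0.569 to 41.1 ± 4.60 CPM (log2 1.47, adjusted p = 5.85e-06). Ikbkg, the regulatory subunit of the kinase that activates NF-kB, rose by log2 0.89 (adjusted p = 2.54e-06) and Endog, a mitochondrial nuclease, by log2 0.50 (adjusted p = 0.00282). Ppif, a regulator of the mitochondrial permeability pore, fell from 22.9 ± 0.906 to 11.8 ± 0.466 CPM (log2 -0.96, adjusted p = 9.71e-07). Trp53, which encodes p53, and Birc5, the mitotic protein survivin, also fell, with log2 -0.67 and -0.52. In HD-homo against control cells Ddit3, Ikbkg and Endog rose too, by log2 0.49, 0.42 and 0.66 (adjusted p = 0.0143, 7.81e-04 and 5.39e-04). Trp53 and Birc5 fell there with log2 -0.17 and -0.20 (adjusted p = 0.0342 for both), while Ppif rose (log2 0.33, adjusted p = 0.00217).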

How the data were processed

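Poly(A) RNA of 9 libraries, 3 per line, was sequenced with a directional kit. The authors deposited whole-number read counts per gene symbol, without normalization. The submitters' processing notes name cutadapt, Bowtie 1.1.2, RSEM 1.3.0, DESeq2 and the builds GRCm38.p5 and mm10. The role of each tool, the annotation, the strand setting and the rounding of estimated counts are not given in the sources used here.

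All 9 libraries entered a single edgeR fit with the line as factor (edgeR 4.0.16, R 4.3.3). filterByExpr (minimum count 10) kept 13508 of 36410 listed genes, normalization was by TMM, and the quasi-likelihood test with Benjamini-Hochberg adjustment over all tested genes was read at an adjusted p under 0.05. The study's methods name no test for these libraries. The pipeline was tested on simulated data with a single spread for all genes and changes in the HD-homo line only. That checks the code and not the error rate in these libraries. CPM use normalized totals of tested genes, and CPM per kb the union of exons in GENCODE M21 (GRCm38), matched by symbol for all 34 genes. Fold changes are ratios of mean CPM. Promoters are from RefSeq (GRCm38.p6). Libraries of a line differed by more than counting noise (variance ratios 2.23 to 40.3), so all were counted separately, although repeat preparations of the same RNA could also differ this way.

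The members and lists were chosen with earlier results of these data known. All members are named. Genes of the wider list are named when among the 4 largest called increases or decreases against control, if the higher line reached 5 CPM and libraries did not overlap. A gene that this rule names is not reported here. Alternatives covered normalization, DESeq2 1.42.0, filters, the lines fitted, the replicate number and each library left out.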

Additional observations from a re-analysis of the deposited data

How the results depend on the processing

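Over 17 alternatives, 17 of 21 calls between HD-homo and control, 15 of 19 between HD-het and control and 21 of 27 between the HD lines held under every one that tested the gene. Ripk3, Bmf and Bik were not tested when at least 10 counts were required in every library, nor was Bik with only the 2 HD lines fitted. Lost under at least 1 were Bak1, Pmaip1, Casp8 and Ripk1 in the first comparison, Bik, Bbc3, Cycs and Xiap in the second, and Bax, Bid, Cycs, Casp2, Casp12 and Xiap in the third. Beside Bak1, some calls were lost by method. The edgeR test lost Ripk1 in the first comparison without the filter on low counts (adjusted p = 0.0535). It lost Bax in the third with library totals only (0.0623). With only the 2 lines compared it lost Pmaip1 in the first (0.0605) and Bid and Cycs in the third (0.0837 and 0.0613). The DESeq2 Wald test lost Bik in the second (0.0703). Between the HD lines Bax was lost without HD-het 1, HD-het 3, HD-homo 1 or HD-homo 2 (adjusted p 0.0506 to 0.127), Cycs without HD-het 1, HD-het 2, HD-homo 1 or HD-homo 3 (0.0698 to 0.139), Casp2 without HD-homo 2 (0.0592) and Xiap without HD-het 2, HD-homo 1 or HD-homo 3 (0.0593 to 0.0763), while Bik passed without HD-homo 1 (0.0137). With a further requirement of a 2-fold change there were 4 higher and 5 lower of 31 in HD-homo against control (1367 and 1207 of all 13508 genes), 6 higher and 2 lower in HD-het against control (1622 and 868), and 3 higher and 5 lower in HD-homo against HD-het cells (1399 and 1886). Leaving out each library in turn gave 7 to 9 higher and 10 to 12 lower, 11 to 13 higher and 5 to 8 lower, and 8 to 10 higher and 15 to 18 lower. Without control 3, HD-het 3 and HD-homo 2 together, chosen after seeing the data, the counts were 7 and 12, 12 and 7, and 10 and 17.

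Signs turned for genes near 0 that were not called. In HD-homo against control cells, leaving out 1 library moved log2 values from -0.0800 to 0.00269 for Bad, from -0.0228 to 0.0285 for Bcl2l2, from -0.0127 to 0.0996 for Mcl1, from -0.109 to 0.0334 for Cycs, from -0.0658 to 0.0859 for Xiap and from -0.122 to 0.0449 for Birc2, and between the HD lines from -0.138 to 0.0921 for Apaf1. Without the 3 libraries together the log2 values in HD-homo against control were 0.0200 for Bad, -0.0234 for Mcl1, 0.0890 for Cycs, -0.0167 for Casp9 and -0.103 for Xiap, and Apaf1 was at -0.233 between the HD lines (adjusted p = 0.00914). With only the 2 HD lines fitted, Apaf1 was at -0.000364. The cause was not tested.

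Libraries of the same number deviated together with mean correlations of 0.0213, 0.109 and 0.0808 in the 3 comparisons, not over 0.1 in every pair, so the numbers were not taken as pairing. Of 6 libraries per comparison, 6, 6 and 4 correlated best with their own number. With the replicate number as a block, the only member whose call changed was Bid, which became lower in HD-het against control cells (log2 -0.28, adjusted p = 0.0290). Depth limits Casp1, Casp4, Hrk, Bik and the control level of Ripk3, which rest on few reads.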
